A study of Capitella teleta with 10 samples.

Results

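The transcripts described here are 27 transcript models of the annelid worm *Capitella teleta* that were at or near 0 in the 64-cell embryo and the gastrula and were present at stage 4tt and at both later larval stages. They were chosen by their measured values alone. A model was taken when its normalized read count was at most 2 in all 4 libraries of the 64-cell and gastrula stages and at least 20 in all 6 libraries of stages 4tt, 5 and 7. Of 41221 transcript models, 27 met both limits. They belonged to 27 different gene identifiers, and for 24 of these the chosen model was the sole model of its gene.

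*C. teleta* is a spiral-cleaving annelid that broods its embryos in a tube and has a larva that lives on yolk and does not feed. In animals generally, the embryo starts with RNA that the mother placed in the egg, and genes of the embryo's own genome are then read in turn as cells are specified and tissues are laid down. After gastrulation the larva of this species forms its ciliary bands, begins to segment its trunk and lays down its nervous system, gut and musculature. A transcript absent early and present at each larval stage belongs, by its timing, to the second of these phases. None of the 27 identifiers could be paired with a gene name, so the roles of the individual genes are not analysed here and no sequence is shown.

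Whole embryos and larvae of no stated strain or treatment were snap frozen at 5 stages, with 2 libraries each: the 64-cell embryo, the gastrula, stage 4tt, stage 5 and stage 7. The study calls stage 4tt an early larva after gastrulation, whereas its sample label reads embryo; it is counted here with the larval stages. The values are read counts that the authors normalized between libraries, and the library totals ran from 32883200 to 55846793, the lowest at stage 7 and the highest at the 64-cell stage. The study calls the 2 libraries of a stage biological replicates. The labels name no brood or culture for either, and p-values measure the spread between these samples. RNA came from whole animals, so fewer cells that carry a transcript cannot be told apart from less RNA per cell. Values depend on the length of a model, which the sources used here do not give, so levels are compared between stages and not between transcripts.

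Few of the transcripts that were near 0 early became abundant in the larval libraries. Of 6166 models at or below 2 in all 4 early libraries, 5769 (93.6%) did not reach 20 in any larval library. Among the 6166, 2648 (42.95%) were at 0 in all 10 libraries. At stage 4tt, 48 models had reached 20 in both libraries, at stage 5 97 models, and at stage 7 214 models. Of the 48 that were on at stage 4tt, 33 were at 20 or more in both stage 5 libraries as well, and 27 also in both stage 7 libraries. The remaining 21 were not kept in the sense used here. In 15 of them a stage 5 library was below 20 and in 13 a stage 7 library was.

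The early limit lies close to what a few reads give, whereas the larval limit lies well above that. In the early libraries a value of 2 corresponded to between 1.72 and 3.31 reads, and in the larval libraries a value of 20 corresponded to between 21.4 and 47.4 reads, as read from the steps between the lowest values of each library. The 4 early libraries were also the 4 largest by total. These totals are sums of normalized counts and do not give the number of reads sequenced. CTELG00000036001.1 was the member closest to the larval limit, at 20.4 and 93.6 at stage 4tt, 44.5 and 99.7 at stage 5, and 118 and 24.9 at stage 7, and CTELG00000019953.2 was next with 20.5 in replicate 1 of stage 4tt. Both were thus kept by a margin smaller than the difference between their own replicates.

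Transcripts just outside the limits had similar courses. CTELG00000006131.1 was at 0 in all 4 early libraries, at 19.6 and 36.4 at stage 4tt, 30.96 and 58.4 at stage 5, and 121 and 71.3 at stage 7, and was left out by a single library. CTELG00000008502.1, singled out after its values were seen, stood at 11.9 and 32.7 at stage 4tt, at 515 and 1269 at stage 5, and at 7948 and 5466 at stage 7. It was left out by the same library, replicate 1 of stage 4tt. In all, 25 models missed the larval limit in 1 of the 6 libraries, and in 13 of them the library below 20 was replicate 1 of stage 4tt. On the early side, CTELG00000021395.1 had 2.47 in replicate 1 of the 64-cell stage and stood at 96.1 and 168 at stage 4tt and at 2376 and 2222 at stage 7, so that a trace of a few reads kept it out. The number of members is therefore a property of the limits, and moved from 27 to 63 with a larval limit of 10 and to 7 with a larval limit of 50.

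Before stage 4tt the members were absent or at trace level. All 4 early libraries listed 0 for 13 of the 27, 11 were above 0 in 1 library and 3 in 2 libraries. Of the 108 early values, 17 were above 0 and 10 reached 1. The highest trace among the gastrula libraries belonged to CTELG00000026174.1, with 1.97 and 1.86, which was the sole member above 0 in both gastrula libraries. No member was above 0 in both libraries of the 64-cell stage, where the highest single value was 1.97 for CTELG00000012642.1. Values of this size are a few reads, and at this depth absence cannot be told apart from such a level.

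**Figure D1:**
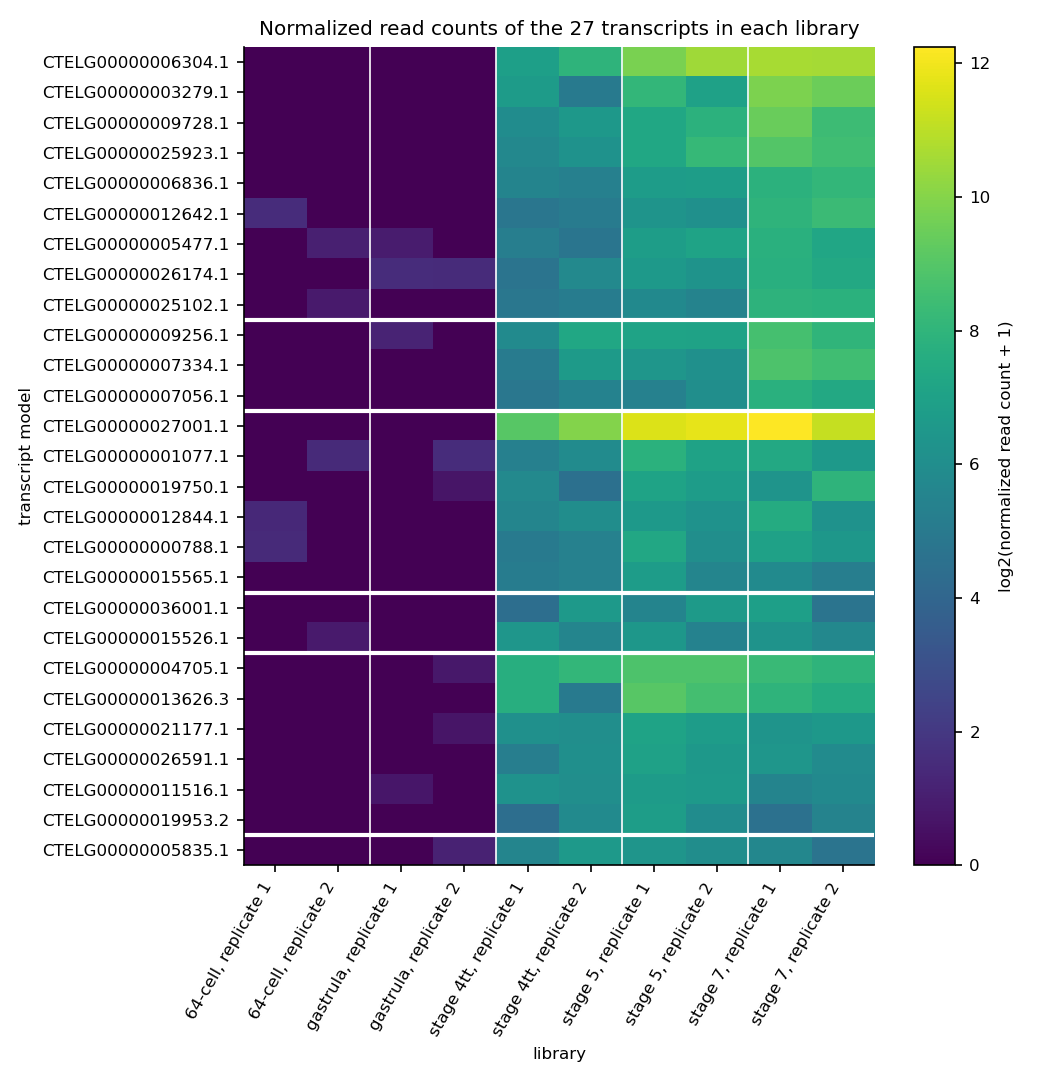
Normalized read counts of the 27 transcripts, as log2(value + 1), in each of the 10 libraries; rows are transcript models, ordered and separated by thick lines by how the libraries of stages 4tt, 5 and 7 lie to each other, and columns are libraries, separated by thin lines by stage. The 4 early columns hold no value above 1.97, whereas in the larval columns the brightest row, CTELG00000027001.1, runs from 528 to 4859.

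At stage 4tt most members were low. Their median was 46.9 in replicate 1 and 59.5 in replicate 2, and 5 of 27 reached 100 in each library. At stage 5 the median was 113 and 99.7, and 18 and 13 members reached 100. At stage 7 the median was 216 and 166, and 19 and 16 members did so. Together the 27 transcripts made up 0.00678% ± 0.00222 (SD, n = 2) of the library total at stage 4tt, 0.0212% ± 0.00316 (SD, n = 2) at stage 5 and 0.0310% ± 0.00748 (SD, n = 2) at stage 7. Their shares were 0.00521% and 0.00835% in the 2 libraries of stage 4tt, 0.0190% and 0.0235% at stage 5, and 0.0363% and 0.0258% at stage 7, so the libraries of stage 4tt lay below all later ones and those of stages 5 and 7 did not overlap. The group therefore came on at a low level and held a larger part of the larval transcripts later, but remained a small part throughout.

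A single transcript carried much of this sum. CTELG00000027001.1, the member with the highest mean, was at 0 in all 4 early libraries, at 528 and 1012 at stage 4tt, at 3065 and 3506 at stage 5, and at 4859 and 2277 at stage 7. It made up between 25.01% and 43.0% of the members' sum in the larval libraries. Without it the other 26 members held 0.00471%, 0.0124% and 0.0205% of the library at stages 4tt, 5 and 7, so the order of the stages did not rest on it. CTELG00000006304.1 had the second highest mean, with 0 in all 4 early libraries, 119 and 247 at stage 4tt, 893 and 1449 at stage 5, and 1606 and 1529 at stage 7.

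The step from gastrula to stage 4tt was the one used to choose the members, so it is given without a test. Of all models tested, 10.7% were called higher at stage 4tt than in the gastrula, and all 27 members were among them by construction. Changes between the larval stages were not fixed in this way, although a member could not fall below 20 at any of them. They were tested with limma on log2(value + 1) over the 35526 models above 2 in at least 2 libraries, with p-values adjusted by the Benjamini-Hochberg method over all of them, and a change was called when its log2 fold change exceeded 1 in size and its adjusted p was under 0.05. All 27 members passed this filter, through their larval libraries alone.

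From stage 4tt to stage 5, the members differed by a median of 1.19 on the log2 scale, with stage 5 the higher, against 0.02 for all models tested. The fitted difference was positive in 26 of 27 members, with a range of -0.05 to 2.72, and 15 exceeded 1. Both stage 5 libraries were above both stage 4tt libraries in 21 members, against 21.7% of all models tested. In the other 6 the libraries overlapped, and no member lay below, against 17.9% of all models. The ratio of the stage means had a median of 2.18 and ran from 0.987 to 6.40.

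No single member passed the test for this step. With limma, 0 of 27 were called higher, against 0.327% of all models tested, and 0 were called lower, against 0.234%. Before adjustment, 10 members had a p under 0.05, all of them higher, and the lowest adjusted p among the 27 was 0.0546. The largest difference belonged to CTELG00000006304.1. Its stage 5 libraries, at 893 and 1449, were both several-fold above its stage 4tt libraries, at 119 and 247, and the log2 fold change was 2.72. In the fit of all 10 libraries, the median standard error of a member's log2 fold change was 0.66. There a log2 difference of 1 in a single transcript was less than 2 standard errors. This size depends on which libraries enter the fit. With the 6 larval libraries alone, added after the data were seen, the SD that the test uses had a median of 0.46 for the members, against 0.66.

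From stage 5 to stage 7, the members had no common direction. The median log2 difference was 0.19, against 0.05 for all models, and the range was -1.36 to 2.36. It was positive in 17 of 27, with 9 above 1 and 4 below -1. Both stage 7 libraries were above both stage 5 libraries in 12 members, against 28.9% of all models, both were below in 7, against 22.9%, and the libraries overlapped in 8. With limma, 0 members were called higher, against 3.81% of all models tested, and 0 lower, against 2.08%, whereas 6 had an unadjusted p below 0.05, all higher, and the lowest adjusted p was 0.0642. These counts depend on which stages enter the fit. With the 4 libraries of the 2 stages alone, 5 members were called higher. With the 6 larval libraries alone, a fit added after the data were seen, 3 were. The share of all models called in these fits was not taken.

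Over the whole span from stage 4tt to stage 7, 12 of 27 members rose and 0 were called lower. Of all models tested, 9.32% were called higher and 5.67% lower. The median log2 difference of the 27 was 1.76, against 0.12 for all models, 24 were positive and 18 exceeded 1. Both stage 7 libraries were above both stage 4tt libraries in 18 members, against 33.5% of all models, and below in 1, CTELG00000011516.1, against 25%. In the remaining 8 they overlapped. Before adjustment, 14 had a p under 0.05, all of them higher. The members that rose were 4.63-fold to 12.2-fold higher in their stage 7 mean than in their stage 4tt mean, with adjusted p between 0.00282 and 0.0278 by limma, and in all 12 the libraries of the 2 stages did not overlap.

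The number of these calls rested on single libraries. Without replicate 1 of stage 7, 1 member was called, which was CTELG00000006304.1. Without replicate 2 of stage 7, 4 of the 12 were called, and without replicate 2 of stage 4tt, 11 of the 12 were. Without replicate 1 of stage 4tt, 4 members were called, of which 3 were among the 12 and the other was CTELG00000013626.3. A pseudocount of 0.1 in place of 1 left 4 of the 12. In the fits with another setting or without a library, all 12 kept a positive difference. Their libraries of the 2 stages did not overlap, so leaving out a library could not reverse the sign.

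CTELG00000003279.1 had the largest rise of the 12. It was at 0 in all 4 early libraries, at 105 and 30.5 at stage 4tt, at 274 and 127 at stage 5, and at 912 and 732 at stage 7. Its stage means thus followed in order, and its 2 libraries differed more, in ratio, at stage 4tt than at stage 7. The log2 fold change from stage 4tt to stage 7 was 3.83 (SE 0.70), with an adjusted p of 0.00602 by limma. CTELG00000006304.1, described above, had the second largest rise, of 3.19 (SE 0.49), with an adjusted p of 0.00282 by limma. Most of its difference lay between stages 4tt and 5, where its mean log2 value moved by 2.72, and its stage 7 libraries, at 1606 and 1529, were only just above the higher stage 5 library at 1449.

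**Figure D2:**
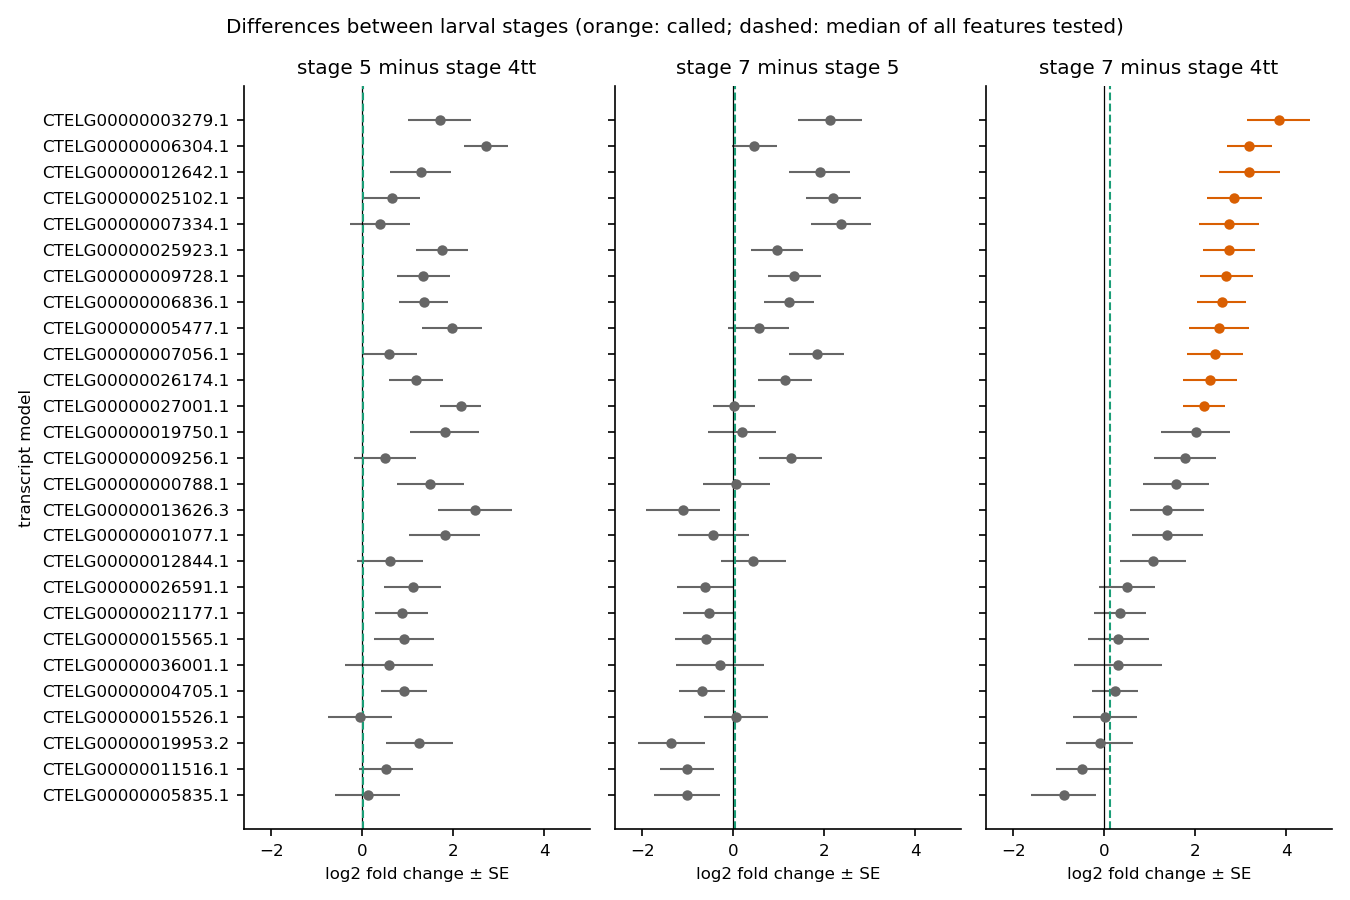
Log2 fold change of each of the 27 transcripts between larval stages, with its standard error as a bar, for stage 5 minus stage 4tt, stage 7 minus stage 5 and stage 7 minus stage 4tt; rows are ordered by the last, orange marks called changes and the dashed line is the median of all models tested. Nearly all points of the first panel lie above 0, those of the second lie on both sides between -1.36 and 2.36, and the 12 called changes of the third lie between 2.18 and 3.83.

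The courses after onset fell into a few kinds, described by whether the 2 libraries of a stage lay above, below or among those of the stage before. Both steps share the stage 5 libraries, so the kinds are a description with no test. The share of all models in each kind was not taken, so no kind is read as particular to the members. In 9 members both steps led upwards, and all 9 were among the 12 called from stage 4tt to stage 7. Their stage means had medians of 42.1, 125 and 286 at stages 4tt, 5 and 7. CTELG00000012642.1 is an example, singled out after its values were seen. It was at 27.2 and 33.7 at stage 4tt, then at 80.9 and 70.4, and then at 252 and 320. Its replicates stayed close at each stage, and no library of a later stage reached down to an earlier one.

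Apart from this transcript, CTELG00000006304.1 and CTELG00000003279.1, the upward group held 6 more. CTELG00000009728.1 was at 61.97 and 90.1 at stage 4tt, then at 155 and 234, and then at 687 and 339.6. CTELG00000025923.1 was at 51.2 and 75.7, then at 157 and 291, and then at 492 and 356. In both, the second step was uneven, with replicate 1 of stage 7 above replicate 2. CTELG00000006836.1 was at 44.5 and 39.6, then at 107 and 110.5, and then at 236 and 275. CTELG00000025102.1 was at 27.6 and 34.8, then at 55.5 and 44.03, and then at 239 and 222. The replicates of this pair stayed within a narrow range at each stage. CTELG00000005477.1 was at 36.4 and 26.1, then at 112 and 137, and then at 219 and 152. CTELG00000026174.1, the member with traces in both gastrula libraries, was at 25.1 and 52.8, then at 93.3 and 76.4, and then at 211 and 166. From stage 4tt to stage 7 these 6 rose by log2 fold changes of 2.33 to 2.85, the largest being that of CTELG00000025102.1 (2.85, SE 0.61, adjusted p = 0.0117 by limma).

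In 3 members the upward step came after stage 5. CTELG00000007334.1 was at 33.5 and 103 at stage 4tt and at 85.4 and 69.8 at stage 5, so that its libraries overlapped, and was then at 451 and 355 at stage 7. CTELG00000007056.1 was at 28.0 and 41.8, then at 41.1 and 66.3, and then at 216 and 166. CTELG00000009256.1 was at 57.0 and 154, then at 135 and 133, and then at 401 and 258. The first pair of these were among the 12 called between stages 4tt and 7, and CTELG00000009256.1 was not.

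In 6 members the stage 5 libraries were above both those of stage 4tt and those of stage 7, and 11 of 27 had their highest mean at stage 5. The stage means of these 6 had medians of 68.4, 117 and 78.6. CTELG00000004705.1 was at 202 and 278 at stage 4tt, at 447 and 454 at stage 5, and at 318 and 246 at stage 7. CTELG00000021177.1 was at 69.1 and 64.4, then at 138 and 109, and then at 79.4 and 90.5. CTELG00000011516.1 was at 74.5 and 65.7, then at 103 and 99.3, and then at 45.5 and 54.4, and so ended below its starting level. In all 3 the stage 5 libraries stood above those of both other stages. CTELG00000026591.1 was at 36.8 and 67.9, then at 129.6 and 91.8, and then at 84.7 and 59.6. CTELG00000019953.2 was at 20.5 and 56.98, then at 113 and 61.4, and then at 22.8 and 44.01. The sixth was CTELG00000013626.3, which is described with its gene. None of these differences between stages 5 and 7 passed the test.

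For the rest, the libraries of neighbouring stages overlapped in at least 1 step. In 6 members, CTELG00000027001.1 among them, the first step led upwards and the libraries of stages 5 and 7 overlapped. For CTELG00000027001.1 the rise to stage 7 was called, with a log2 fold change of 2.18 (SE 0.46) and an adjusted p of 0.0112 by limma. CTELG00000001077.1 was at 39.6 and 59.5 at stage 4tt, then at 225 and 134, and then at 167 and 97.7. CTELG00000000788.1 was at 31.6 and 40.3, then at 161 and 65.9, and then at 129 and 89.8. Replicate 1 was the higher one at stages 5 and 7 in both. CTELG00000012844.1 was at 47.3 and 63.8, then at 95.98 and 75.2, and then at 181 and 73.9, so that replicate 1 of stage 7 alone stood apart. CTELG00000019750.1 was at 53.4 and 21.8, then at 137 and 109.8, and then at 79.95 and 246, with the stage 7 libraries on either side of those of stage 5. CTELG00000015565.1 was at 33.8 and 40.7, then at 109 and 46.2, and then at 57.9 and 36.8, and ended among its stage 4tt values. None of these 5 was called in any larval comparison. CTELG00000005835.1 was at 46.9 and 94.7 at stage 4tt, at 82.2 and 64.0 at stage 5, and at 49.3 and 25.4 at stage 7, with overlapping libraries at the first step and lower ones at the second. CTELG00000015526.1 and CTELG00000036001.1 overlapped at both steps. CTELG00000015526.1 was at 85.6 and 46.4, then at 88.0 and 42.3, and then at 77.99 and 51.7, so that its replicates differed more than its stages, with replicate 1 the higher one each time. It was the sole member whose highest mean was at stage 4tt, at 65.97 against 65.14 and 64.87 at stages 5 and 7, a difference far smaller than that between its replicates.

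**Figure D3:**
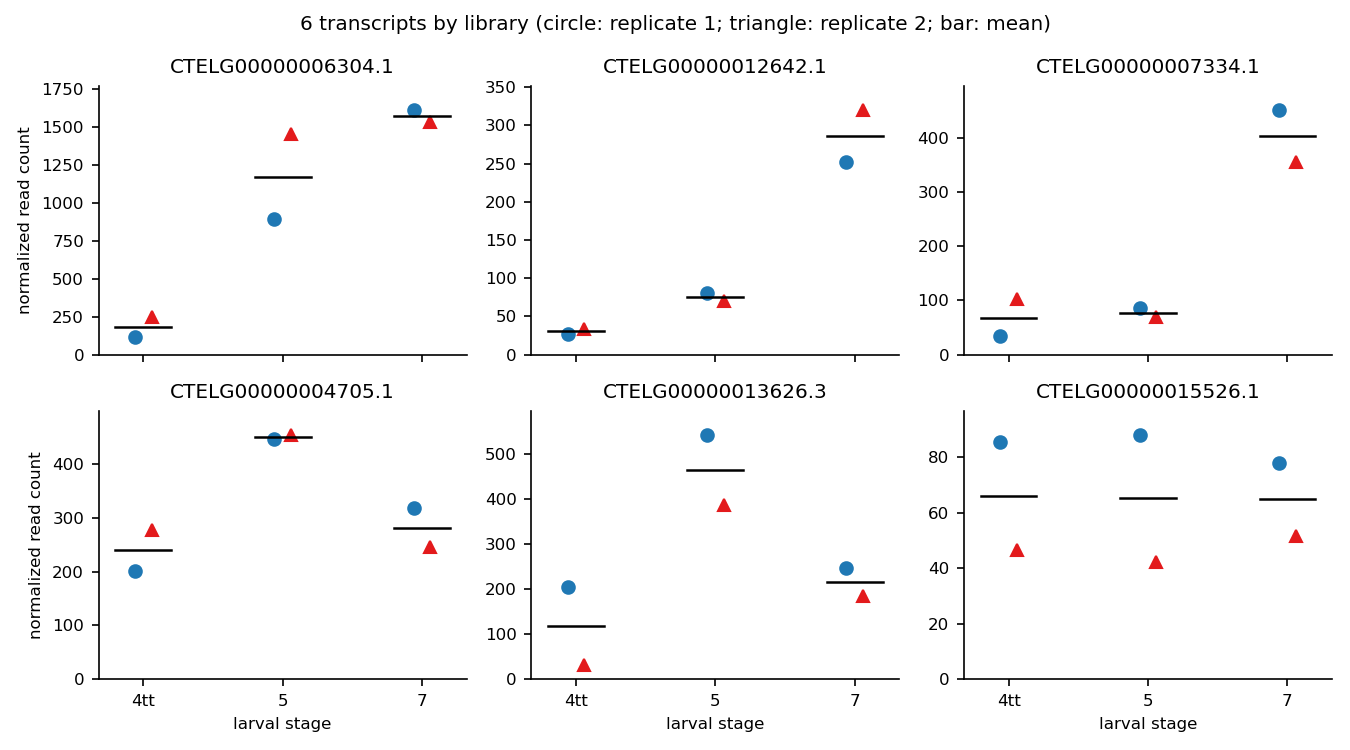
Normalized read counts of 6 of the transcripts at stages 4tt, 5 and 7, each panel with its own linear axis from 0; circles are replicate 1, triangles replicate 2 and bars the mean of the 2 libraries. CTELG00000006304.1 and CTELG00000012642.1 are higher at each stage, CTELG00000007334.1 steps up at stage 7 to 451 and 355, CTELG00000004705.1 and CTELG00000013626.3 are highest at stage 5, and the replicates of CTELG00000015526.1 differ more than its stages.

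By the stage of the highest mean, 1 member peaked at stage 4tt, 11 members peaked at stage 5 and 15 peaked at stage 7. Taken from replicate 1 alone the counts were 0, 12 and 15, and from replicate 2 alone 1, 11 and 15, and 20 members had the same stage in both. In the moderated F-test for any change among the 3 larval stages, 9 of 27 members passed, against 14.9% of all models tested. This count was 0 without replicate 1 of stage 7, 2 without replicate 2 of stage 7, 3 without replicate 1 of stage 4tt and 4 without replicate 2 of stage 4tt.

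The upward course was set beside that of a second group of late transcripts, the 156 models at most 2 at the 64-cell stage and at least 20 in all libraries from the gastrula onwards. Those models differed from stage 4tt to stage 5 by a median log2 value of 0.09 and from stage 4tt to stage 7 by -0.36. From stage 4tt to stage 7, 19 of the 156 (12.2%) were called higher and 30 (19.2%) lower, whereas among the 27 members 12 were called higher and 0 lower. The highest larval mean of the 156 was at stage 4tt in 37.8%, at stage 5 in 32.1% and at stage 7 in 30.1%. Among the 19227 models at 20 or more in all 6 larval libraries, whatever their early values, the median log2 difference from stage 4tt to stage 7 was -0.00, and 9.27% were called higher and 7.98% lower. The difference between these groups and the members was not tested, and each group was chosen by its values. The members had medians of 46.9 and 59.5 in the stage 4tt libraries. The limit of 20 therefore left most of them little room for a called fall.

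For 3 members, the gene was not new at stage 4tt, only the transcript model. CTELG00000003279, CTELG00000013626 and CTELG00000019953 have 2, 5 and 2 models, and each of their 6 other models was above 2 in at least 1 early library. CTELG00000013626.3 was at 0 in all 4 early libraries, at 205 and 32.0 at stage 4tt, at 542 and 387 at stage 5, and at 246 and 185 at stage 7. CTELG00000013626.2, of the same gene, was at 450 and 489 at the 64-cell stage and at 163 and 207 in the gastrula, and then at 37.0 and 31.2 at stage 4tt. This model was lower at stage 4tt than before, but was back at 208 and 234 at stage 5 and differed between the stage 7 libraries, at 208 and 9.82. CTELG00000013626.1 and CTELG00000013626.5, of the same gene, took the opposite course at stage 4tt, whereas the stage 4tt libraries of CTELG00000013626.4 differed. CTELG00000013626.1 was at 0 and 54.1 at the 64-cell stage, at 68.96 and 37.3 in the gastrula, and at 485 and 786 at stage 4tt. CTELG00000013626.5 was at 159 and 59.6, then at 166 and 97.1, and then at 407 and 192. CTELG00000013626.4 was at 23.9 in replicate 1 of the 64-cell stage, at 0 in the other 3 early libraries, and at 3.40 and 338 at stage 4tt. The models of this gene thus followed no common course.

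CTELG00000003279.2 accompanied CTELG00000003279.1 at a higher value. It was at 256 and 280 at the 64-cell stage, at 92.8 and 98.2 in the gastrula, at 1180 and 431 at stage 4tt, at 2232 and 883 at stage 5, and at 5167 and 5149 at stage 7. Both models of the gene were lower in replicate 2 than in replicate 1 at stages 4tt and 5. CTELG00000019953.1 was at 138 and 280 at the 64-cell stage and at 21.7 and 23.5 in the gastrula, and lay between 817 and 1486 in the larval libraries, where CTELG00000019953.2 lay between 20.5 and 113. The chosen model made up 6.62% to 15.0% of the sum of the models of CTELG00000003279 over the larval libraries, 2.32% to 36.3% for CTELG00000013626, and 1.51% to 10.02% for CTELG00000019953. Reads that fit several models of a gene are divided among them by an estimate, so the values of such models are uncertain individually.

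When the values were summed over the models of each gene, 24 genes met both limits, and each of them holds 1 of the 27 members. The other 3 are the genes just described. In the 24 genes the member is the sole model, so the sum is the member's own value and could not differ from it. For the other 3 the sum exceeded the early limit, so onset at stage 4tt was a property of 1 model in each. One of these 3 models, CTELG00000003279.1, is also among the 12 that rose to stage 7.

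**Figure D4:**
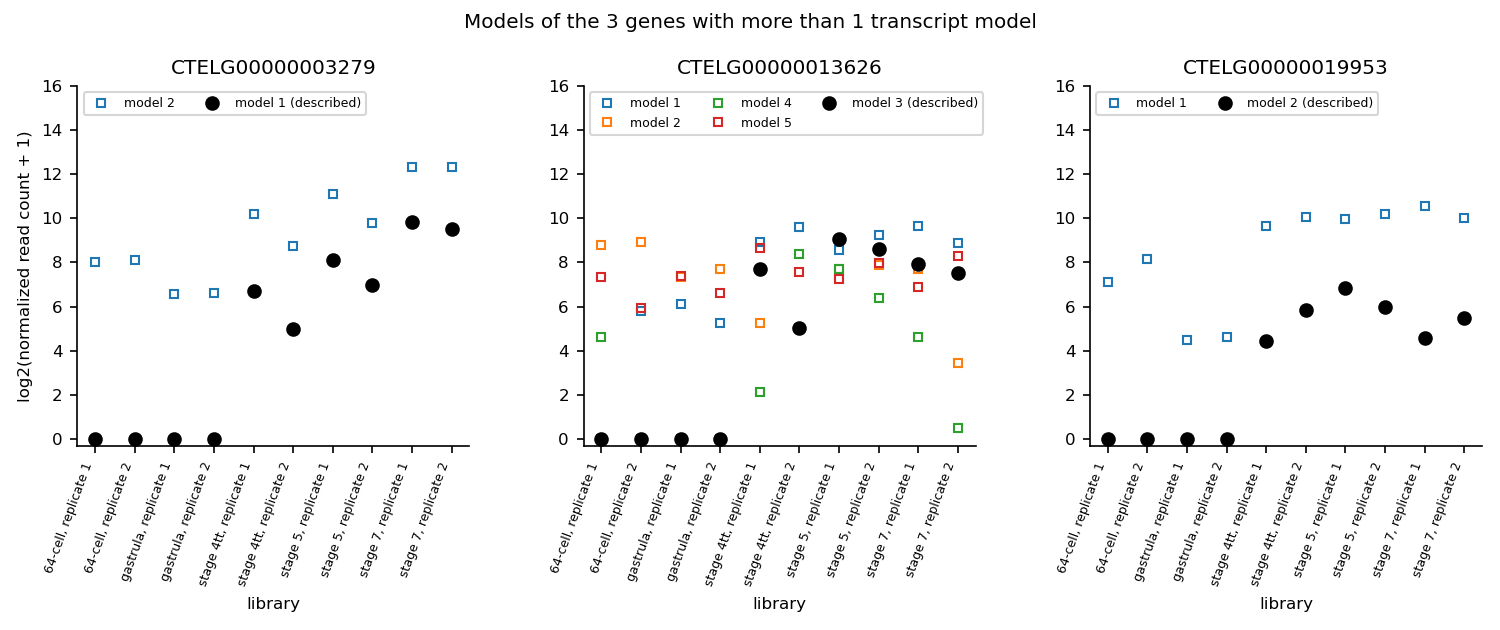
Values of all transcript models, as log2(normalized read count + 1), in each library for the 3 genes with more than 1 model; filled black circles are the model present only from stage 4tt and open squares the other models of the gene. In the 4 early libraries the black circles are at 0 while other models of the same genes reach 489, 280 and 280 in CTELG00000013626, CTELG00000019953 and CTELG00000003279.

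The replicates of a stage differed in a common direction among the members. At stage 4tt, 19 of 27 were higher in replicate 2, by a median log2 difference of 0.46, whereas at stage 5 9 were, with a median of -0.29, and at stage 7 6 were, with a median of -0.41. Over all models tested this median was 0.00 at each of the 3 stages. The smallest of a member's 6 larval values was in replicate 1 of stage 4tt for 18 members and in replicate 2 of stage 4tt for 6. Each pair of single libraries gave a positive median for stage 5 over stage 4tt, between 0.69 and 1.35, and for stage 7 over stage 4tt, between 1.17 and 2.38. For stage 7 over stage 5 the median of single pairs ran from -0.37 to 0.85, so this step had no direction that all libraries shared.

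The spread within stages was like that of other models in the fit of all 10 libraries, with a median residual SD of 0.52 on the log2 scale for the members and 0.52 for all models. Since the rule holds the members near 0 in 4 of these libraries, it was also taken from the 6 larval libraries alone. There it was 0.53 for the members and 0.43 for all models. The test uses a moderated SD, which is drawn towards a trend over all models. Its median for the members was 0.66 with all 10 libraries and 0.46 with the 6 larval ones. In the fit of the 6 larval libraries, added after the data were seen, 13 members were called higher from stage 4tt to stage 7 and 12 passed the F-test. The fit of all libraries gave 12 and 9. From stage 4tt to stage 5 the larval fit called 1 member higher, and from stage 5 to stage 7 it called 3, in place of 0 at each step. The share of all models called in the fit of the 6 larval libraries was not taken.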

How the data were processed

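Whole *C. teleta* embryos and larvae were collected in duplicate, per the study's methods, and total RNA was made into strand-specific mRNA libraries. The authors pseudo-aligned the reads to their gene models using kallisto (v0.46.2) and then normalized these estimated counts using DESeq2 (v1.30.1), per the submitters' processing notes. The deposited signal is this normalized read count per transcript model, not whole and not scaled to a fixed total, so the test for normalized values was used and no count test was run. The sources used here do not list the libraries that entered the normalization.

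Values were transformed as log2(value + 1), a scale that understates changes of low models. A limma (v3.58.1) trend model in R (v4.3.3) was fitted to all 10 libraries with 1 coefficient per stage, after keeping models above 2 in at least 2 libraries (35526 of 41221), and was tested on simulated data. No simulated model was set near 0 in the early libraries alone, so the simulation does not show how the fit treats the members. Adjustment was by Benjamini-Hochberg over all models. Descriptive values came from pandas (v2.3.3) and numpy (v2.4.6) under Python (v3.11.15), and the plots from matplotlib (v3.10.9). Reads behind a value were estimated from the steps between low values, since whole reads could not be recovered. The 2 libraries of a stage shared no identical value above 0, so neither repeats the other. This does not show that they were independent. Each counted as a sample, as the study calls them biological replicates.

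Members and lists were chosen with earlier results of these data known. Identifiers were named by a rule: the 2 largest called rises and falls of each comparison whose libraries do not overlap, the 2 highest means, the members and models next to the limits, and the 2 genes whose other models were highest early. All others printed were chosen after their values were seen. Of 31977 genes in a RefSeq table (assembly Capca1), 0 had an identifier used here, so no names were taken from it. Alternatives were other scaling, array weights, filters, pseudocounts, a replicate block, fewer libraries, other limits and leaving out each library, where a lone library was assumed to vary like the others.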

Additional observations from a re-analysis of the deposited data

How the results depend on the processing

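The fitted differences of the 12 members that rose to stage 7, and of the 2 members with the largest difference in each of the other 2 larval comparisons, kept their sign in 336 of 336 fits with another setting or without a library, and the 12 members called from stage 4tt to stage 7 were still called in 215 of 252. CTELG00000006304.1 was called in 21 of 21 of them, with adjusted p by limma between 0.000909 and 0.0370, and CTELG00000003279.1 in 20 of 21. For all of these differences the libraries of the 2 stages did not overlap, so leaving out a library could not reverse their sign. The number of calls moved, the share of all models called in the other fits was not taken, and the cause was not tested. For stage 5 against stage 4tt, 1 member was called higher with a pseudocount of 5 and 1 with the 6 larval libraries alone, in place of 0. For stage 7 against stage 5 these settings gave 4 and 3, array weights gave 2, no filter gave 1 and the 4 libraries of both stages alone gave 5, in place of 0. For stage 7 against stage 4tt a pseudocount of 0.1 gave 4 in place of 12, and 2 in place of 9 for the F-test. Leaving out 1 library at a time, the members called higher numbered 0 to 1, 0 to 1 and 1 to 12 in these 3 comparisons, and 0 to 10 passed the F-test. The number of models that met both limits was 13 with an early limit of 0, 83 with an early limit of 5, 63 with a larval limit of 10 and 7 with a larval limit of 50, and 27 to 55 without 1 library, the highest being without replicate 2 of the gastrula. The number of members highest at stage 4tt was 2 with median-ratio scaling and 0 by mean log2 value. Without 1 library it was 0 to 2, with 8 to 13 highest at stage 5 and 13 to 17 at stage 7. Without the 5 most abundant members, the others held 0.00310%, 0.00625% and 0.0119% of the library at stages 4tt, 5 and 7. With the replicate number as a block, 0, 0 and 12 members were called higher and 9 passed the F-test, and no call changed. The labels give no shared origin for samples with the same number. Their deviations correlated at -0.00775 to 0.221 over the 10 pairs of stages, above 0.1 in 2, so the numbers were not taken to pair the samples.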

Other observations

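Identifiers that follow or precede those of the members by 1 were examined as a description, after the data were seen, since the sources used here do not say what the numbering follows. Of 63 models with such an identifier, 9 (14.3%) were at or below 2 in all 4 early libraries, against 15.0% of all models. CTELG00000021176.1, next to the member CTELG00000021177.1, was among them. It was at 1.98 in replicate 1 of the gastrula, at 14.4 and 23.9 at stage 4tt, at 46.7 and 21.1 at stage 5, and at 24.7 and 21.8 at stage 7, and missed the larval limit by 1 library. Its gene was not near 0 early. Another model of it, CTELG00000021176.3, was at 14.9 and 24.3 at the 64-cell stage and at 0 and 10.6 in the gastrula.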
